A study of Mus musculus with 4 samples.

Results

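This is an account of 9 genes that mark germinal centre B cells or act in somatic hypermutation (Bcl6, Mef2b, Mybl1, Fas, Rgs13, Plxnb2, Basp1, Ung and Polh), compared between B cells of 2 mouse strains. The 9 genes were taken by symbol from a table of 23418 genes, and all 9 passed the filter on low counts that left 13075 genes for testing. The RNA came from sorted B cells of the cervical lymph nodes, which drain the salivary glands, with 2 libraries from the control strain BL/10 and 2 from the strain NOD.B10. NOD.B10 mice, with a C57BL/10 H2 haplotype on an otherwise NOD genome, develop a disease like Sjögren's. The labels give each group by its genotype alone, with no treatment, and age, sex, the sorting markers and whether animals were pooled are not given in the sources used here. The labels do not say whether a strain's libraries are from different animals, so the p-values rest on a spread between libraries that may be only technical.

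Germinal centres are structures of B cell follicles in which activated B cells divide, mutate their immunoglobulin genes and compete for survival signals. BCL6 is the repressor that holds B cells in this state, and MEF2B is a transcription factor that acts upstream of it. Hypermutation starts when cytosine in the immunoglobulin genes is deaminated to uracil. Uracil is then removed by the glycosylase UNG or recognised by mismatch repair, which brings in the error-prone DNA polymerase eta, the product of Polh. Most B cells of a resting lymph node are naive follicular cells, so a bulk library mixes many cells outside the germinal centre with few inside it. In such a library fewer germinal centre cells and less RNA per cell cannot be told apart.

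Promoter sequences were printed for the members whose windows held a motif of a B cell factor discussed here. Windows are the 250 bases before an annotated transcript start, read 5′ to 3′ on the gene strand, from RefSeq on GRCm38.p6, the C57BL/6J assembly, and alleles of NOD.B10 were not read. Of the 9 members 8 matched, with 10 windows, since Bcl6 and Plxnb2 have several starts, and Mybl1 had no entry. Capitals mark TTCNNNGAA, the core shared by STAT and BCL6 motifs, the E-box CACGTG, and the octamer ATGCAAAT bound by POU2F factors and their coactivator, the product of Pou2af1. Both strands were searched, and none of the marked matches overlapped another.
Bcl6 first window, chr16:23988853-23989102, minus strand: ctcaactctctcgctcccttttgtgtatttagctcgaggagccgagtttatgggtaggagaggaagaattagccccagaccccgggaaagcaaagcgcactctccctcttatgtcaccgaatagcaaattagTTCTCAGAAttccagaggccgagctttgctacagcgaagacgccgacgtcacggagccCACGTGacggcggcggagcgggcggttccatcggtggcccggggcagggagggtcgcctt
Bcl6 second window, chr16:23981284-23981533, minus strand, inside the gene: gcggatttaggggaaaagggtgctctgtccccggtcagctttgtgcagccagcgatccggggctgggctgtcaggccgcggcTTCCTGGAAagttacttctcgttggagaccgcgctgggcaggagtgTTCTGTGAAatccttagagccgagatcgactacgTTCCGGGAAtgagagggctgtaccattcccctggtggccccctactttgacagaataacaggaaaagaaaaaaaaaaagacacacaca
Fas, chr19:34290409-34290658, plus strand: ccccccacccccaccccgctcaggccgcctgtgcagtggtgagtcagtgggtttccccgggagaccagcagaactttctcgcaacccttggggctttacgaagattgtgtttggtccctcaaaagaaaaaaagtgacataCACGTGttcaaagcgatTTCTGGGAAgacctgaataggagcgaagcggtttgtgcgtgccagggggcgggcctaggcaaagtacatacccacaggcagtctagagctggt
Mef2b, chr8:70152511-70152760, plus strand: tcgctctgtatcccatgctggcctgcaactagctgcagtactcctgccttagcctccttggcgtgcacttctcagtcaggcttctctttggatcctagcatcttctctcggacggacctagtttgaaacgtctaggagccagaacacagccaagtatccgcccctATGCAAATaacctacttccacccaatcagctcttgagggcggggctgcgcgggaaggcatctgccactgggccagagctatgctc
TTCNNNGAA stood in 3 of the 10 member windows (both of Bcl6, with 3 copies in the second, and that of Fas). It stood in 7.02% of all 32851 windows of this length. The bases after the start of the second Bcl6 window were not found in a GENCODE M21 transcript of the gene. Those of the first Bcl6 window and of the Fas window were found. CACGTG stood in the first Bcl6 window and in that of Fas, and in 6.02% of all windows. The octamer stood 85 to 78 bases before the start of Mef2b alone among the members, and in 1.6% of all windows. The MEF2 motif and the ETS core CCGGAAG were found in 0 of the 10 member windows, and in 2.92% and 6.91% of all windows. The GC box GGGCGGGG, also searched but not marked above, stood in 5 of the 10 member windows and in 16.1% of all windows. Its members were Basp1, Mef2b, Plxnb2, Polh and Ung, and in the Mef2b window it stood 49 to 42 bases before the start. These matches describe letters in a window and do not show binding.

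The B cell identity of the libraries was checked against fixed markers. The 10 B cell markers, Ms4a1 and Cd79a among them, were summed in CPM (read counts relative to library sizes scaled by TMM in edgeR). The sums were 9373 and 9556.5 CPM in BL/10 and 10329 and 10953 CPM in NOD.B10. Of the 10, 1 was called higher in NOD.B10 and 0 lower (10%, against 15.2% of all genes tested). It was Fcer2a, with a log2 fold change of 0.57 (edgeR adjusted p = 0.00287). The 19 T cell markers summed to 722 and 839 CPM in BL/10 and to 198 and 176 CPM in NOD.B10, of which Cd2 alone gave 166 and 153 CPM. Without Cd2 the sums were 520.4 and 631 CPM against 32.6 and 22.7 CPM. The median log2 fold change of the list was −5.30, and Trat1 had 0 reads in NOD.B10. All 19 were called lower there, against 8.63% of all genes tested. Bcl6 and Fas are also expressed by T cells, and the part of that RNA in the values below was not tested. The 9 plasma cell markers summed to 1323 CPM in the first BL/10 library against 625 to 703 CPM in the others, a gap carried by Igj, since without it the sums were 715 and 565 CPM in BL/10 and 689 and 618 CPM in NOD.B10. Total counts ran from 19328803 to 29372751 reads.

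None of the 9 genes was called between the strains (0 of 9, against 15.2% of all genes tested, 6.55% higher and 8.63% lower; edgeR quasi-likelihood test, Benjamini-Hochberg adjusted p under 0.05). By unadjusted p under 0.05 there were 3, Bcl6, Basp1 and Polh, against 26.8% of all genes. DESeq2 and limma-voom also called 0 members, while edgeR with no filter on low counts called 2, Bcl6 (adjusted p = 0.0163) and Basp1 (adjusted p = 0.0288). Leaving out the first BL/10 library gave 1 call (Basp1) and leaving out the second gave 2 (Bcl6 and Rgs13). With a BL/10 library left out, that strain has 1 library, assumed to vary like the other strain, so the spread comes from the NOD.B10 libraries and the pooling over genes and leaves out the gap between the BL/10 libraries. Such calls, here and for single genes below, show how a value moves and are no further support. The libraries of the strains did not overlap for 5 members, 3 higher and 2 lower in NOD.B10, against 55.6% of all genes, 27.9% higher and 27.7% lower. The median log2 fold change, NOD.B10 over BL/10, was 0.10 over the 9 members and 0.00 over all genes. A missed threshold does not show equal levels, so each difference is given with its 95% interval, which is not adjusted for the number of genes.

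**Figure D1:**
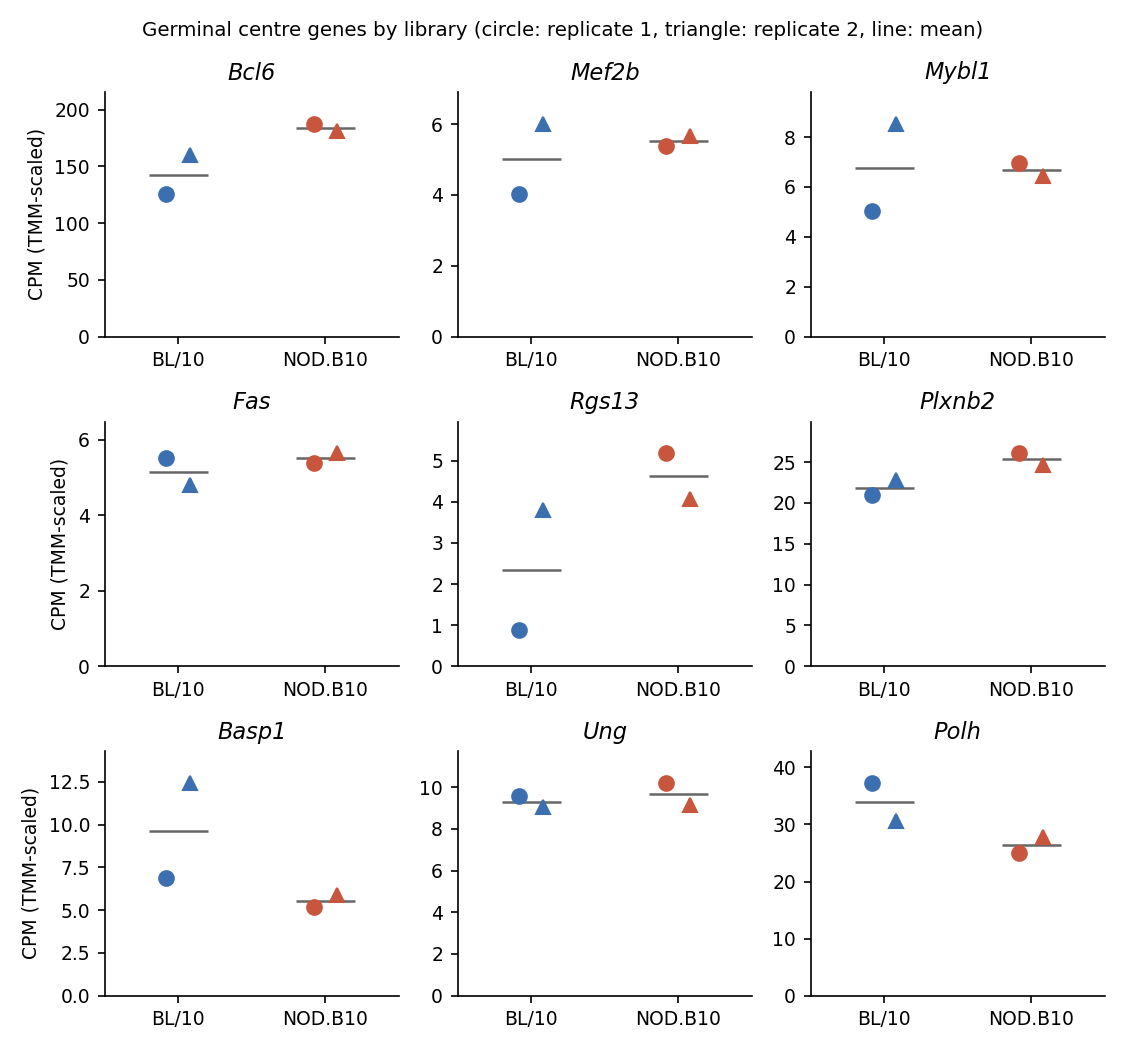
Level of each gene in each library in CPM, with BL/10 in blue and NOD.B10 in red, circles for replicate 1, triangles for replicate 2 and a line at the mean of 2 libraries. The BL/10 libraries stand apart from each other for Rgs13, Basp1, Mybl1 and Mef2b, while the NOD.B10 libraries lie close together.

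Per kilobase of the deposited gene length, Bcl6 had the highest level of the 9 in every library, between 38.1 and 57.0 CPM per kilobase, above 90.3% of the genes tested. Polh was next, at 9.70 to 14.4 CPM per kilobase, and its range touched neither neighbour in this order. Ung, Basp1, Mef2b and Plxnb2 followed with mean levels of 4.53, 4.09, 3.93 and 3.60 CPM per kilobase, and the ranges of neighbours among these 4 overlapped. The range of Plxnb2 lay above that of Fas, the next. Fas, Rgs13 and Mybl1 had the lowest mean levels, 2.96, 2.33 and 1.89 CPM per kilobase, also with overlapping ranges. Mybl1, the lowest, lay above 23.4% of the genes tested. The annotation behind the deposited lengths is not given in the sources used here, and levels per kilobase depend on it. Bcl6 has a deposited length of 3285 bases and an exon union of 6700 bases in GENCODE M21. For Polh these lengths are 2580 and 5950 bases, and for Ung 2097 and 5468 bases. The place of Ung in this order therefore rests on the deposited length.

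**Figure D2:**
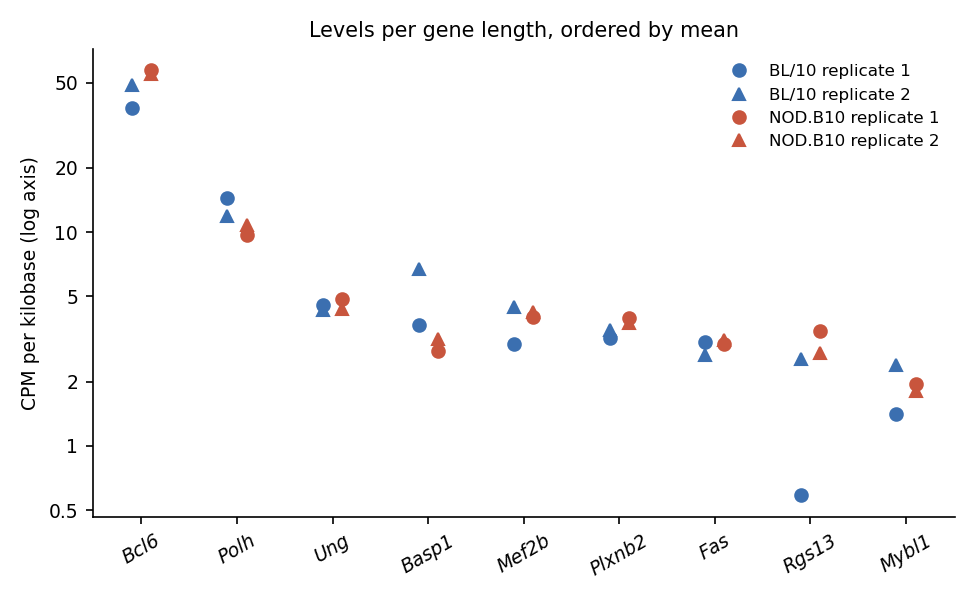
Level per kilobase of deposited gene length in each library, in CPM per kilobase on a log axis, with genes ordered by their mean over 4 libraries. Bcl6 lies between 38.1 and 57.0, Polh between 9.70 and 14.4, and the other 7 genes at or below 6.71.

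Of the transcription factors, Bcl6 (chromosome 16, 23965050 to 23988866) was the member closest to the threshold. It had 3710 and 4125 reads in BL/10 and 3616 and 4622 reads in NOD.B10, or 125 and 159.9 CPM in BL/10 and 187 and 181 CPM in NOD.B10. Both NOD.B10 libraries lay above both BL/10 libraries. The means were 143 ± 24.5 and 184 ± 4.52 CPM (SD, n = 2 each), a log2 fold change of 0.37 (SE 0.127, 95% interval 0.10 to 0.64) with an edgeR adjusted p of 0.0696. This is 1.29-fold, with an interval of 1.07-fold to 1.56-fold. The value rested on which BL/10 library was kept: without the second it was 0.55 (adjusted p = 0.00298 with the spread from NOD.B10 alone), and without the first it was 0.20 (adjusted p = 0.327).

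Mef2b (chromosome 8, 70152761 to 70167488) had 4.02 and 6.01 CPM in BL/10 and 5.39 and 5.68 CPM in NOD.B10. Both NOD.B10 values lay between the BL/10 values. The log2 fold change was 0.15 (SE 0.309, 95% interval −0.52 to 0.81, edgeR adjusted p = 0.831). In GENCODE M21, 62 exon bases of Mef2b (4.4%) are shared with Borcs8 on the same strand, and how reads there were counted is not given in the sources used here.

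Mybl1 (chromosome 1, 9667407 to 9700439) encodes A-MYB, a transcription factor of cycling germinal centre cells. It had 5.03 and 8.53 CPM in BL/10, which enclosed the 6.94 and 6.42 CPM of NOD.B10. Its log2 fold change was −0.02 (SE 0.299, 95% interval −0.66 to 0.63, edgeR adjusted p = 0.979), and its sign turned with the library left out, from −0.35 without the first BL/10 library to 0.40 without the second. For this gene the interval of the ratio, NOD.B10 over BL/10, runs from 0.631 to 1.54.

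Of the surface and signalling genes, Fas (chromosome 19, 34290647 to 34327775), the death receptor raised on germinal centre B cells, had 163 and 124 reads (5.50 and 4.81 CPM) in BL/10 and 104 and 144 reads (5.39 and 5.64 CPM) in NOD.B10, and the ranges overlapped. The log2 fold change was 0.10 (SE 0.288, 95% interval −0.53 to 0.72, edgeR adjusted p = 0.887). It came to 0.00 without the second BL/10 library.

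Rgs13 (chromosome 1, 144137386 to 144177372), a regulator of G protein signalling that dampens chemokine responses in germinal centre B cells, had the widest interval of the 9. Its BL/10 libraries held 26 and 98 reads, against 100 and 104 reads in NOD.B10, or 0.878 and 3.80 CPM against 5.18 and 4.07 CPM. The libraries did not overlap, but the replicate 2 library of BL/10 lay nearer to NOD.B10 than to the first BL/10 library. The log2 fold change of 0.99 (SE 0.606, 95% interval −0.41 to 2.40, edgeR adjusted p = 0.364) became 2.38 when the second BL/10 library was left out, with 26 BL/10 reads remaining (adjusted p = 0.00687 with the spread from NOD.B10 alone). Leaving out the first gave 0.28 (adjusted p = 0.801).

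Plxnb2 (chromosome 15, 89155546 to 89182018) encodes plexin-B2, a semaphorin receptor that acts in positioning of germinal centre B cells. It had 21.0 and 22.8 CPM in BL/10 and 26.1 and 24.7 CPM in NOD.B10, with no overlap. Its log2 fold change was 0.21 (SE 0.159, 95% interval −0.13 to 0.56, edgeR adjusted p = 0.452). With 503 to 630 reads per library, its interval reached 1.47-fold.

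Basp1 (chromosome 15, 25363277 to 25413764), a membrane-bound, calmodulin-binding protein gene used as a germinal centre marker, was the member with the lowest fold change. It had 203 and 321 reads (6.85 and 12.4 CPM) in BL/10 and 100 and 150 reads (5.18 and 5.87 CPM) in NOD.B10. Both NOD.B10 libraries lay below both BL/10 libraries, with a gap of the first BL/10 library to NOD.B10 smaller than the gap between the BL/10 libraries. The log2 fold change was −0.80 (SE 0.304, 95% interval −1.46 to −0.14, edgeR adjusted p = 0.105). Leaving out the first BL/10 library gave −1.17 (adjusted p = 0.0108 with the spread from NOD.B10 alone), and leaving out the second gave −0.31 (adjusted p = 0.65).

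**Figure D3:**
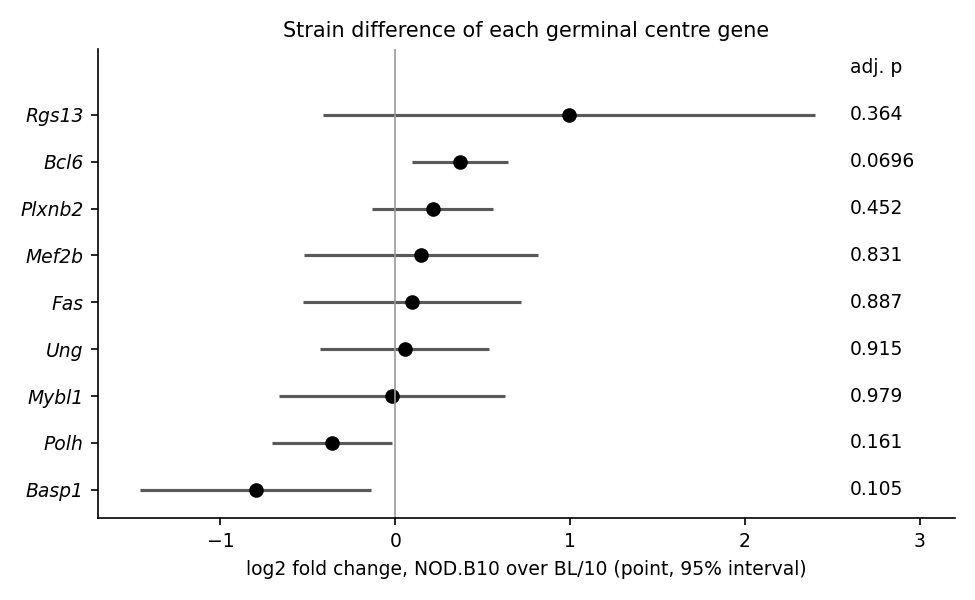
Log2 fold change of each gene, NOD.B10 over BL/10, with its 95% interval from the edgeR fit over all genes (4 libraries) and its adjusted p at the right. The intervals of Bcl6, Polh and Basp1 do not reach 0, and no adjusted p is under 0.05, the lowest being 0.0696 for Bcl6.

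Of the hypermutation genes, Polh (chromosome 17, 46171355 to 46202641) had 1104 and 789 reads in BL/10 and 483 and 710 reads in NOD.B10. This came to 37.3 and 30.6 CPM against 25.0 and 27.8 CPM, with no overlap. Its log2 fold change was −0.36 (SE 0.158, 95% interval −0.70 to −0.02, edgeR adjusted p = 0.161). With 1 library left out it ran from −0.50 to −0.21, with adjusted p from 0.062 to 0.582.

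Ung (chromosome 5, 114130366 to 114139321) stood at 9.59 and 9.03 CPM in BL/10 and 10.2 and 9.16 CPM in NOD.B10. The ranges overlapped, and the log2 fold change was 0.06 (SE 0.223, 95% interval −0.43 to 0.54, edgeR adjusted p = 0.915). The upper bound of the interval was 1.45-fold.

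The BL/10 libraries differed from each other beyond counting error for 6 of the 9 members, against 52.7% of all genes. In NOD.B10 this held for 0 of 9 members, against 46.5% of all genes. Each value here is the ratio of the second to the first library of a strain, with a 95% interval for counting error only (Clopper-Pearson), and it compares those libraries and not conditions. In BL/10, Rgs13 was 4.33-fold higher in the second library (interval 2.78 to 6.95), Basp1 1.81-fold (1.52 to 2.17), Mybl1 1.69-fold (1.37 to 2.10) and Mef2b 1.49-fold (1.17 to 1.91). Bcl6 was 1.28-fold higher (1.22 to 1.33), and Polh was the member that went the other way beyond its interval, with a ratio of 0.820 (0.748 to 0.900). Counting those at least 1.5-fold apart, a fold chosen after the values were seen, gave 3 of 9 members in BL/10, all higher in the second library, against 14.4% of all genes either way and 9.09% in that direction, and 0 of 9 in NOD.B10, against 16.5% either way and 6.01% higher in the second. In NOD.B10 the 9 ratios lay between 0.786 for Rgs13 and 1.13 for Basp1, and each of their intervals included 1.

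**Figure D4:**
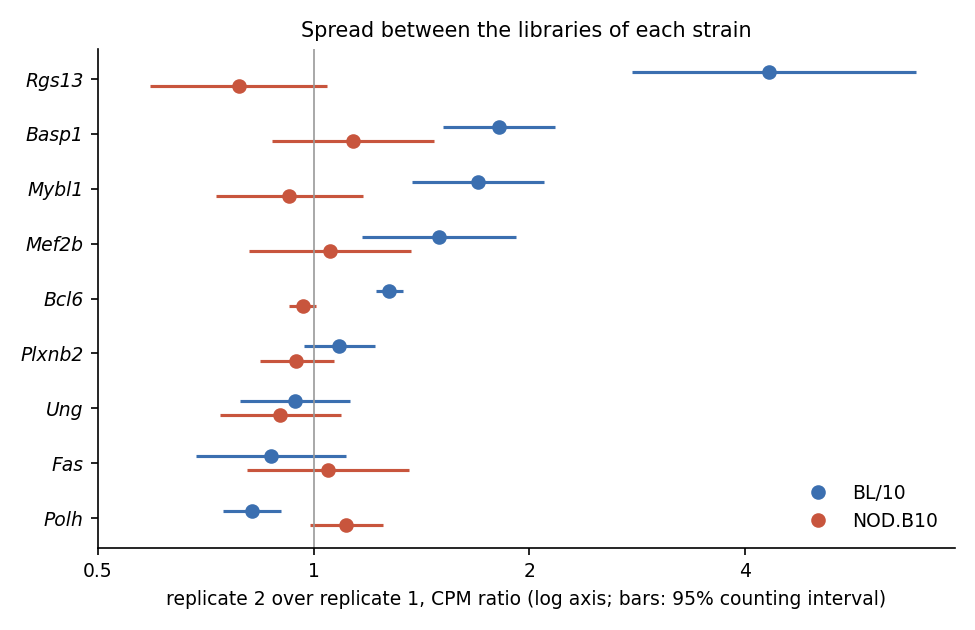
Ratio of the second to the first library of each strain for each gene, on a log axis, with 95% counting intervals, BL/10 in blue and NOD.B10 in red. In BL/10 Rgs13, Basp1, Mybl1, Mef2b and Bcl6 lie above 1 and Polh below it, while every NOD.B10 interval includes 1.

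In the lists, 2 of 21 surface and positioning genes (9.52%) and 1 of 21 transcription and chromatin genes (4.76%) were at least 1.5-fold higher in the second BL/10 library, near or below the 9.09% of all genes, with median ratios of 1.02 in both. Single genes named here were picked after their values were seen. Gcsam, which encodes a motility regulator of germinal centre B cells, had 33 and 70 reads, a ratio of 2.43 (interval 1.59 to 3.80), and Nuggc, a germinal centre GTPase gene, had 32 and 63 reads, a ratio of 2.26 (1.45 to 3.57). S1pr2, the receptor that confines B cells to the germinal centre, was not higher beyond counting error, with 113 and 112 reads and a ratio of 1.14 (0.868 to 1.49), while in NOD.B10 its ratio was 0.528 (0.409 to 0.681). Plasma cell genes were higher in the first library. Sdc1, the plasma cell surface marker CD138, was 2.49-fold higher in the first library (2.12 to 2.93), Prdm1, the plasma cell factor that Bcl6 represses, 2.02-fold (1.70 to 2.41), and the joining chain gene Igj 5.12-fold (4.93 to 5.32). Of 9 plasma cell markers, 7 were at least 1.5-fold higher in the first BL/10 library, against 697 of 13054 among all genes. Other cell type lists had genes that far higher in the second, against 9.09% of all genes. These were 6 of 14 myeloid and dendritic, 3 of 6 natural killer, 3 of 5 follicular dendritic and stromal and 4 of 19 T cell markers. These lists had 0 that far the other way, and the B cell list had 0 either way. Of 20 proliferation genes 3 were that far higher in the second and 1 in the first. The part of a differing cell makeup of these 2 libraries in the members' values was not tested.

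Among the other genes of hypermutation and switching, few were called. Of 31 listed genes 30 were tested, 2 fell and 0 rose (6.67%, against 15.2% of all genes), with a median log2 fold change of −0.02. Pcna, the replication clamp whose ubiquitinated form recruits polymerase eta, fell from 89.0 ± 6.77 to 51.5 ± 2.57 CPM (SD, n = 2 each), a log2 difference of −0.79 (SE 0.121, edgeR adjusted p = 5.95e-04). Exo1, the exonuclease of mismatch repair, fell from 7.14 ± 0.0197 to 3.49 ± 0.763 CPM (log2 fold change −1.02, edgeR adjusted p = 0.0348), a call lost when any library but the second of NOD.B10 was left out (adjusted p = 0.113, 0.0985 and 0.134). The list then had 1 call. Both also serve DNA replication. In the same NOD.B10 libraries 15 of 20 proliferation genes were called lower (75%, against 8.63% of all genes), with a median log2 fold change of −1.77. The part of this in the fall of Pcna and Exo1 was not tested. Top2a, the topoisomerase of dividing cells, fell from 39.4 ± 8.32 to 12.1 ± 0.625 CPM (edgeR adjusted p = 2.77e-05).

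In the list of break repair genes used in class switching, 2 of 20 rose and 2 fell (20%, against 15.2% of all genes). Rif1, which protects broken ends from resection, fell from 170.5 ± 5.66 to 120.1 ± 4.36 CPM (log2 fold change −0.51, edgeR adjusted p = 0.00669). Prkdc, the DNA-dependent protein kinase, rose from 131 ± 5.25 to 194 ± 20.5 CPM (log2 fold change 0.57, edgeR adjusted p = 0.00463), a call lost when replicate 1 of NOD.B10 was left out (adjusted p = 0.0588). The list then had 1 call.

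Surface and positioning genes of follicular and germinal centre B cells had 8 of 21 higher and 1 lower (42.9%, against 15.2% of all genes tested, a difference that was not tested), with a median log2 fold change of 0.23. Ccr6, a chemokine receptor, rose from 159 ± 21.7 to 355 ± 26.4 CPM (1.16 on the log2 scale, SE 0.12, edgeR adjusted p = 1.99e-05). Cd83, an activation marker of light zone B cells, rose from 240.3 ± 28.0 to 434 ± 3.71 CPM (log2 fold change 0.85, edgeR adjusted p = 1.25e-04). Cmah, the sialic acid hydroxylase whose loss gives germinal centre cells the GL7 epitope, rose from 601 ± 78.7 to 952 ± 6.34 CPM (log2 fold change 0.66, edgeR adjusted p = 9.29e-04). All 3 are also expressed outside the germinal centre. The gene called lower was Cd86, like Cd83 an activation marker (log2 fold change −0.58, edgeR adjusted p = 0.0163). The activation markers of this list thus did not move in 1 direction. Of the genes in this list known as more restricted to germinal centre cells, 3 picked after their values were seen were not called: S1pr2 had a log2 fold change of 0.56 (edgeR adjusted p = 0.345), Gcsam −0.48 (adjusted p = 0.65) and Nuggc −0.28 (adjusted p = 0.817). Efnb1, a germinal centre surface gene of the same list and picked in the same way, was called higher (log2 fold change 1.03, edgeR adjusted p = 0.0118). These picked genes therefore do not show that the more restricted genes were unchanged.

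Germinal centre transcription and chromatin genes had 2 higher and 2 lower among 21 (19%, against 15.2% of all genes). Mef2c, the related MEF2 factor, rose from 922 ± 7.27 to 1183 ± 36.6 CPM (log2 fold change 0.36, edgeR adjusted p = 0.0192), a call lost without either NOD.B10 library (adjusted p = 0.0888 and 0.148). Pou2af1, the octamer coactivator, fell from 677 ± 39.4 to 528 ± 21.3 CPM (log2 fold change −0.36, edgeR adjusted p = 0.0265), a call also lost without either NOD.B10 library (adjusted p = 0.0778 and 0.192). Ezh2, the histone methyltransferase raised in germinal centre cells, fell from 20.2 ± 2.96 to 11.5 ± 2.89 CPM (edgeR adjusted p = 0.0209). It lost its call without the second library of either strain. In the same NOD.B10 libraries 15 of 20 proliferation genes were called lower (75%, against 8.63% of all genes). The part of this in the fall of Ezh2 was not tested. Without a NOD.B10 library the list had 1 call.

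Of 19 tested genes known to be repressed by Bcl6, 3 rose and 7 fell (52.6%, against 15.2% of all genes). That difference was not tested, and the median log2 fold change was −0.30. Irf7, an interferon-induced transcription factor, fell from 76.2 ± 4.12 to 21.6 ± 2.24 CPM (−1.82 on the log2 scale, SE 0.136, edgeR adjusted p = 9.73e-07). Cd44, an adhesion receptor of activated cells, fell from 156 ± 12.5 to 83.4 ± 0.999 CPM (log2 fold change −0.90, edgeR adjusted p = 1.22e-04). Bcl2, the survival gene that germinal centre cells shut off, rose from 206 ± 10.5 to 280.1 ± 9.14 CPM (log2 fold change 0.44, edgeR adjusted p = 0.0113), a call lost when replicate 2 of NOD.B10 was left out (adjusted p = 0.0798). With limma-voom 6 genes of this list were called. All 19 T cell markers and 2 of 9 plasma cell markers were lower in the same NOD.B10 libraries, several of these targets are expressed in such cells, and that part was not tested.

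**Figure D5:**
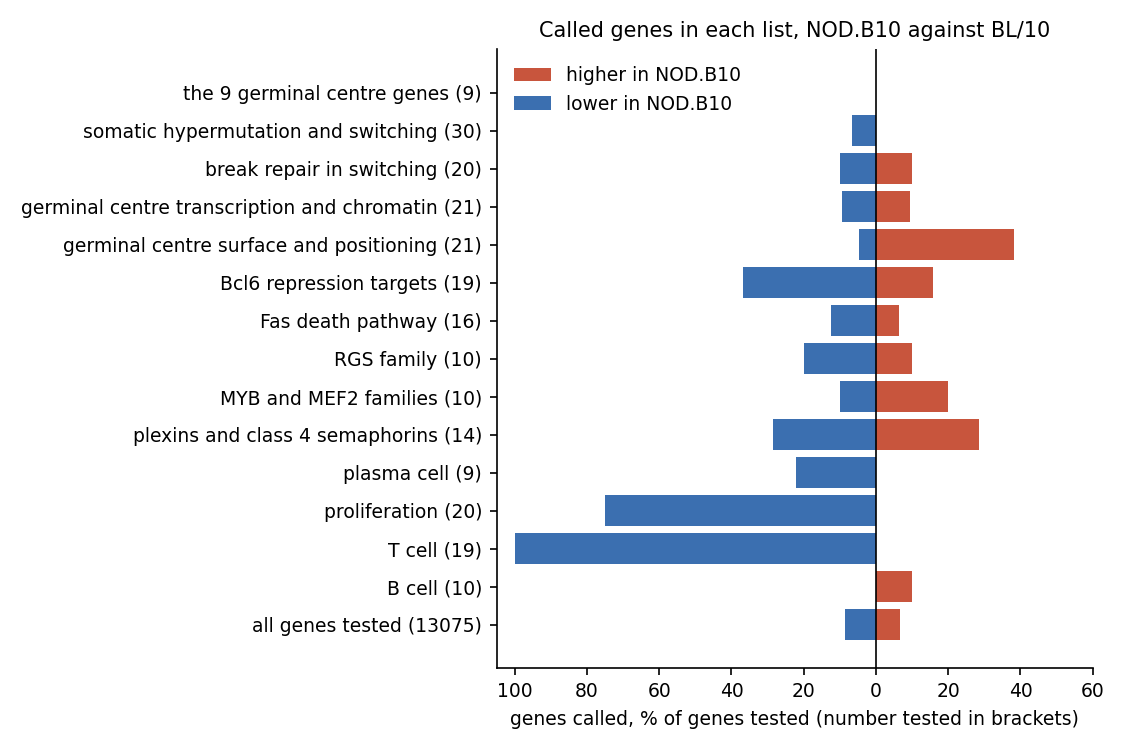
Share of the tested genes of each list that were called higher (red, to the right) or lower (blue, to the left) in NOD.B10, in % of genes tested, by edgeR at an adjusted p under 0.05. The 9 germinal centre genes have 0 calls, the hypermutation list 6.67%, the proliferation list 75% and all genes tested 15.2%.

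Some relatives of single members were called and others were not. A called relative beside a member not called is no test of a difference between them. In the RGS family 1 of 10 rose and 2 fell (30%, against 15.2% of all genes, a difference that was not tested). Rgs18, a regulator found in platelets and myeloid cells, fell from 15.2 ± 0.965 to 2.01 ± 0.0812 CPM (log2 fold change −2.91, edgeR adjusted p = 4.82e-06). Of 14 myeloid and dendritic cell markers 4 fell as well, against 8.63% of all genes, and their part in this fall was not tested. In the MYB and MEF2 families 2 of 10 rose and 1 fell (30%, against 15.2% of all genes, also not tested). Myb, the relative of Mybl1 that acts in precursor cells, fell from 10.4 ± 3.10 to 1.38 ± 0.265 CPM (−2.90 on the log2 scale, SE 0.341, edgeR adjusted p = 5.88e-05), and Mef2a rose with a log2 fold change of 0.44 (edgeR adjusted p = 0.0237), a call lost when replicate 2 of BL/10 (adjusted p = 0.0661) or replicate 1 of NOD.B10 (0.208) was left out. The list had 1 call without the first NOD.B10 library, and the RGS list had 1 call without the second BL/10 library.

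The plexin and semaphorin list had 4 higher and 4 lower among 14 tested (57.1%, against 15.2% of all genes, a difference that was not tested). Plxna1, another plexin receptor, rose from 7.48 ± 0.6 to 29.6 ± 5.54 CPM (1.98 on the log2 scale, SE 0.197, edgeR adjusted p = 1.43e-05). Sema4d, the class 4 semaphorin CD100, rose from 525 ± 72.7 to 923 ± 7.95 CPM (log2 fold change 0.81, edgeR adjusted p = 2.03e-04). Plxnd1 fell from 20.2 ± 2.24 to 5.87 ± 1.82 CPM (log2 fold change −1.80, edgeR adjusted p = 1.96e-04). Sema4c, a ligand of plexin-B2, did not pass the filter on low counts. Marcks and Marcksl1, membrane proteins related in function to Basp1, had log2 fold changes of −0.52 and −0.34 and were not called (edgeR adjusted p = 0.0505 and 0.114). Marcks was called in 6 alternatives, with adjusted p from 4.44e-04 to 0.0453.

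In the Fas death pathway 1 of 16 tested genes rose and 2 fell (18.8%, against 15.2% of all genes). Fasl, the Fas ligand of T and natural killer cells, had 16 reads in each BL/10 library and 0 in NOD.B10, at least 8.63-fold lower against 3 reads over the group (edgeR adjusted p = 0.015), a call lost when any library but the first of NOD.B10 was left out (adjusted p from 0.0607 to 0.093). Tnfrsf1a, the TNF receptor, fell from 4.27 ± 0.0693 to 0.371 ± 0.0847 CPM (log2 fold change −3.49, edgeR adjusted p = 2.63e-04). It had 128 and 109 reads in BL/10 and 6 and 11 reads in NOD.B10. The intracellular part of the pathway was not called, with log2 fold changes of 0.04 for the adaptor Fadd, 0.13 for the initiator Casp8 and 0.06 for the inhibitor Cflar. The list had 1 call in each fit that lost Fasl. All 19 T cell markers and 6 of 6 tested natural killer cell markers were called lower in NOD.B10 as well, against 8.63% of all genes. So were 4 of 14 myeloid and dendritic cell markers. The part of these cells in the falls of Fasl and Tnfrsf1a was not tested.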

How the data were processed

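The deposited file holds raw read counts by gene symbol in 4 columns, 1 for each library, beside a gene length in bases. HISAT2 2.1.0, SAMtools 1.3, featureCounts, Subread 1.6.5 and the build mm10 are named, per the submitters' processing notes. Which annotation and strand setting were used, and how multi-mapped reads were counted, are not given in the sources used here. Each column carries the name of 1 sample in the labels.

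Strains were compared on the deposited counts in edgeR 4.0.16 by its quasi-likelihood test (robust glmQLFit, glmQLFTest, two-sided) in R 4.3.3, with TMM factors, filterByExpr (minimum count 10, minimum total 15) and Benjamini-Hochberg adjustment over all 13075 genes. CPM use TMM-scaled library sizes. SE is the unshrunken fold change over the square root of F, and intervals use the moderated degrees of freedom. A group of 0 reads was set to 3 reads over the group for a bound, and such bounds and intervals of read ratios cover counting error only. Alternatives were RLE and upper-quartile factors, no filter, at least 50 reads in 2 libraries, DESeq2 1.42.0, limma-voom (limma 3.58.1), non-robust dispersion, a replicate block, and leaving out each library. The procedure was tested on simulated data. The members and gene lists were chosen with earlier results of these data known. Genes named beside the members were the called genes of a list ranked by adjusted p, at most 3 of them, or at most 2 by unadjusted p where none was called, and any other was picked after its values were seen. Of the list genes, 271 matched the table directly, 6 through a RefSeq synonym, and 3 were not found. Replicate numbers are shared between strains, but no label says that they pair libraries.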

Additional observations from a re-analysis of the deposited data

How the results depend on the processing

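No member was called in the reported test, nor with RLE or upper-quartile factors, the stricter filter, DESeq2, limma-voom, non-robust dispersion or a replicate block. With no filter 2 were called (Bcl6, log2 fold change 0.37, and Basp1, −0.80), and with 1 library left out 0 to 2. With 1 library left out the log2 fold change ran from 0.20 to 0.55 for Bcl6, −1.17 to −0.31 for Basp1, 0.28 to 2.38 for Rgs13, −0.35 to 0.40 for Mybl1, −0.12 to 0.46 for Mef2b, −0.0027 to 0.20 for Fas and −0.0335 to 0.13 for Ung. Mybl1 also changed sign with limma-voom (0.0437) and with the replicate block (0.0194). Calls among all genes with a library left out ran from 586 to 960 higher and from 1009 to 1228 lower. Of 216 counts of calls per list and alternative, 182 stayed within 1.5 times of the reported count. Calls in the B cell list, 1 as reported, were 3 with no filter, 2 with DESeq2, limma-voom, non-robust dispersion or the replicate block, and 2 to 4 with a library left out. Calls among the 2 tested Basp1 relatives, 0 as reported, were 1 with RLE factors, DESeq2 or the replicate block, 3 with no filter, where Gap43 was tested too, and 1 to 3 with a library left out. Bcl6 targets had 6 with limma-voom. The follicular dendritic list had 1 with the stricter filter, which tested fewer genes. The plasma cell list had 1 with the stricter filter, 4 with DESeq2 or non-robust dispersion, and 1 to 3 with a library left out. Ranges with a library left out were 1 to 5 for break repair and for transcription and chromatin, 1 to 3 for the Fas pathway, 1 to 4 for MYB and MEF2 and for RGS, and 1 to 2 for hypermutation. Where not stated, the cause was not tested. Replicate numbers were not taken as pairs, since no label says that they pair libraries. Deviations of same-numbered libraries had a correlation across genes of −0.0165. A value near 0 over all genes cannot exclude a pairing that touches some of them. Under the replicate block 760 genes were called higher and 1042 lower. Low read numbers, 26 to 104 in Rgs13, limit the precision of each library's value.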
